A study of Homo sapiens with 12 samples.

Results

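The genes of cholesterol synthesis and of its control by the SREBP transcription factors were examined in HEK293T cells, a human embryonic kidney line, that had been made to overexpress the splicing factor SF3B1. Of the 67049 gene identifiers in the count tables, 28 belong to the set, chosen by gene symbol: 7 enzymes of the mevalonate arm, 12 enzymes from squalene to cholesterol, 6 regulators of SREBP and 3 proteins of sterol uptake or transport. All 28 were found and all 28 had enough reads to be tested.

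The enzymes build cholesterol from acetyl-CoA through mevalonate, isoprenoid units, squalene and lanosterol. When sterol in the endoplasmic reticulum is low, SCAP escorts the SREBP precursors to the Golgi, where proteases release the active factor, which then switches on the enzyme genes. When sterol is plentiful, the INSIG proteins hold SCAP and SREBP in the endoplasmic reticulum.

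Cells received a plasmid with SF3B1 carrying the K700E substitution, the most common cancer-associated change of this gene, or with wild-type SF3B1 (WT). Both constructs were in the vector pIRES2 and were introduced by Lipofectamine transfection for 48 h. RNA came from the cytoplasm or the nucleus, which gave 4 groups of 3 libraries: K700E cytoplasm, K700E nucleus, WT cytoplasm and WT nucleus. The title of the study asks about nuclear export of mRNA. Transient transfection leaves a mixture of cells with and without plasmid, gene counts cannot separate plasmid-borne from endogenous SF3B1, and cells without a plasmid were not analysed here, so overexpression shared by both constructs has no baseline.

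Library totals were 13422598 to 18116929 counts in the cytoplasm and 9086743 to 11200562 counts in the nucleus. Levels are CPM, counts scaled to a common library size with TMM factors, given as mean ± SD over the 3 libraries of a group. SF3B1 averaged 7924 ± 882 CPM in K700E cytoplasm, 1600 ± 500 CPM in K700E nucleus, 9430 ± 1061 CPM in WT cytoplasm and 1577 ± 784 CPM in WT nucleus. MALAT1, a nuclear RNA, averaged 63.4 ± 23.1 CPM in K700E cytoplasm against 4873 ± 3271 CPM in K700E nucleus, and 52.2 ± 27.8 CPM in WT cytoplasm against 3723 ± 1402 CPM in WT nucleus. Of 9 HEK293T marker genes, 7 reached 1 CPM in each cytoplasmic group and 8 in each nuclear group, while 2 of 7 markers of blood, liver and fibroblast cells did (ALB and COL1A1). Each library is scaled to its own total adjusted by its TMM factor, which was 0.84 to 0.87 in the cytoplasm and 1.05 to 1.25 in the nucleus. A fraction difference is thus relative to the other RNAs measured, not an amount per cell. In such bulk samples fewer cells of a type and less RNA per cell cannot be told apart.

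In each group 1 library stood apart from the other 2 in its lean towards or away from GC-rich transcripts. The lean was measured as a slope over the protein-coding genes tested (log2 per 10 percentage points of GC content). The slope was 0.23 in K700E cytoplasmic library 3, against -0.10 and -0.13 in the others of its group, and -0.18 in K700E nuclear library 2, against 0.09 in each of the others. It was 0.14 in WT cytoplasmic library 3, against -0.05 and -0.09, and 0.30 in WT nuclear library 2, against -0.16 and -0.13. Fraction calls among the 28 genes that were gained or lost without any of these libraries are given with the value without it. Of the 28 genes, 14 share exon bases with another annotated gene, from 0.47% to 79.3% of their own, and reads of such stretches may be counted for either gene.

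Levels per length are given as RPKM, the CPM per kilobase of annotated exon. LBR, a sterol reductase that is also the lamin B receptor of the inner nuclear membrane, had the highest mean in every group: 76.8 ± 8.07 RPKM in K700E cytoplasm, 98.5 ± 37.6 in K700E nucleus, 75.1 ± 11.4 in WT cytoplasm and 78.6 ± 9.70 in WT nucleus. INSIG1, one of the sterol-dependent anchors, was second in 3 groups, with 66.9 ± 26.6 RPKM in K700E cytoplasm, 30.0 ± 2.08 in K700E nucleus and 51.7 ± 20.6 in WT cytoplasm. In K700E nucleus its SD overlapped those of MSMO1 (24.2 ± 10.6 RPKM), FDPS (24.2 ± 3.90) and INSIG2 (21.2 ± 9.39), so that place is not resolved. In WT nucleus INSIG1 averaged 27.6 ± 19.3 RPKM, within the spread of FDPS at 28.6 ± 6.15 RPKM.

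In both cytoplasmic groups the SDs of LBR and INSIG1 overlapped, so their order is not resolved there. MSMO1 came next in both cytoplasmic groups, with 34.8 ± 9.33 RPKM in K700E cytoplasm and 33.0 ± 7.37 RPKM in WT cytoplasm, and IDI1 and PMVK lay within that spread in both groups, HMGCS1 in K700E cytoplasm and NSDHL in WT cytoplasm. At the low end stood FDFT1, squalene synthase, with a mean of 0.287 RPKM in K700E cytoplasm, 0.397 in K700E nucleus, 0.225 in WT cytoplasm and 0.281 in WT nucleus. Its libraries held 12 to 28 counts each. How reads were assigned to FDFT1 was not tested, so low expression cannot be told apart from reads not counted for it. LSS, lanosterol synthase, had means of 0.994, 0.402, 1.33 and 0.460 RPKM in K700E cytoplasm, K700E nucleus, WT cytoplasm and WT nucleus, and was the next lowest of the 28 in both cytoplasmic groups.

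The fraction comparison asks how transcripts of each gene were divided between cytoplasm and nucleus. With K700E, 10 of the 28 genes stood higher in the cytoplasm than in the nucleus, 5 stood lower, and 13 did not pass the test (edgeR quasi-likelihood test, adjusted p under 0.05 over 20394 genes). Among all genes tested, 28.1% were higher and 37.9% lower, and among protein-coding genes 36.5% were higher and 27.4% lower. With WT, 12 of the 28 were higher, 7 lower and 9 did not pass, against 27.1% higher and 40% lower among all genes and 35.4% higher and 29.5% lower among protein-coding genes. The counts higher in the cytoplasm thus lay above the share of all genes and near that of protein-coding genes.

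The same 9 genes were higher in the cytoplasm with both constructs (ACAT2, PMVK, CYP51A1, NSDHL, EBP, SC5D, DHCR7, SREBF2 and NPC2). Another 4 were lower with both (HSD17B7, SREBF1, MBTPS1 and NPC1). INSIG1 and INSIG2 passed with K700E alone, and 6 genes passed with WT alone (FDPS, SQLE, LSS, TM7SF2, MSMO1 and SCAP). No gene passed in opposite directions, and 7 passed with neither construct (HMGCS1, MVK, MVD, IDI1, FDFT1, LBR and STARD4). A call with one construct and not the other does not show a difference between them, which the interaction test below addresses.

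Enzymes and regulators were then set side by side. Of 19 enzymes, 7 were higher in the cytoplasm with K700E and 1 was lower, with a median log2 difference of 0.61, and 10 were higher and 3 lower with WT, with a median of 0.80. Of 6 regulators, 2 were higher and 3 lower with K700E, with a median of -0.46. With WT, 1 regulator was higher and 3 were lower, with a median of -0.67. Among all genes tested 28.1% were higher and 37.9% lower with K700E, and 27.1% and 40% with WT. Among protein-coding genes the shares were 36.5% and 27.4% with K700E, and 35.4% and 29.5% with WT. The 7 of 19 enzymes higher with K700E lay near the protein-coding share, and the 10 of 19 with WT above it. The median over all genes tested was -0.29 with K700E and -0.40 with WT, and over protein-coding genes 0.19 and 0.13. Without K700E nuclear library 2 the K700E regulator median was -0.28, against -0.39 over all genes. Without WT nuclear library 2 the WT one was -0.42, against -0.38 over all genes, so the regulators then lay close to all genes. Both values were still below the protein-coding medians with all libraries (0.19 and 0.13), which were not recomputed without a library. These counts and medians describe the lists, and no test was made of enzymes against regulators. When libraries were scaled by their totals alone, the median of all genes moved to -0.71 with K700E and -0.92 with WT. The split of the 28 genes became 7 higher and 7 lower with K700E and 7 higher and 10 lower with WT. Of all 20394 genes, 4215 were then higher and 9460 lower with K700E, and 3775 and 10263 with WT. The enzyme median was 0.20 with K700E and 0.26 with WT under that scaling, and the regulator median -0.86 and -1.19. The same medians were 0.25 and 0.41 for enzymes and -0.82 and -1.04 for regulators with upper quartile factors, and 0.25 and 0.35, and -0.78 and -0.99, among genes with 1 CPM in all libraries. Under scaling by library totals EBP (0.74), SC5D (0.57) and INSIG1 (0.74) no longer passed with K700E, nor did EBP (0.26), LSS (1.02), MSMO1 (0.39), SQLE (0.30) and SREBF2 (0.25) with WT.

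**Figure D1:**
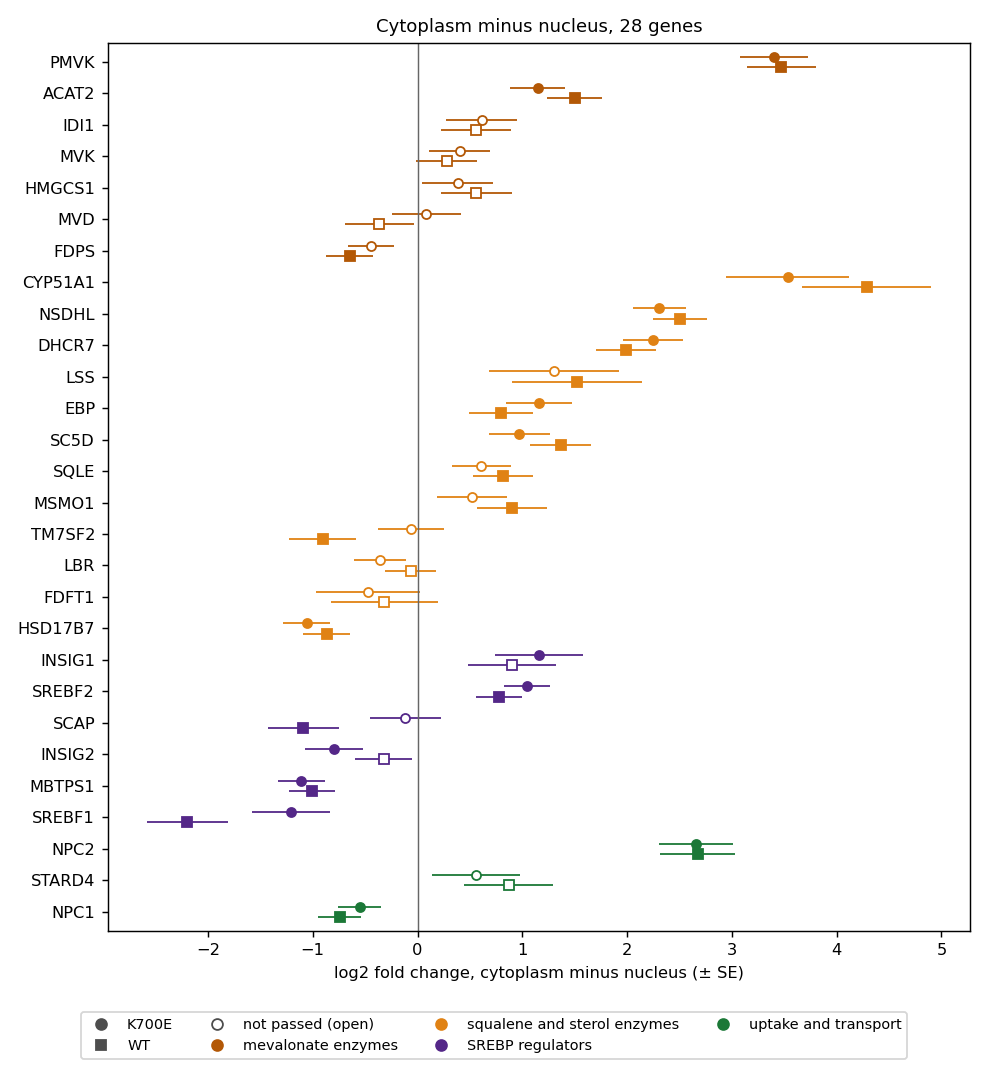
Log2 fold change of cytoplasm minus nucleus (horizontal axis, ± SE) for the 28 genes, grouped by role and ordered by the K700E value, with K700E as circles above WT as squares. Filled symbols passed the test and open ones did not. CYP51A1, PMVK, NPC2 and NSDHL lie farthest to the right with both constructs, and SREBF1 farthest to the left.

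Among the mevalonate enzymes, PMVK and ACAT2 were higher in the cytoplasm with both constructs. PMVK, phosphomevalonate kinase (chr1:154924734-154936991, minus strand), had 31.5, 25.6 and 48.8 CPM in K700E cytoplasm against 3.91, 2.76 and 3.31 CPM in K700E nucleus. With WT it had 34.9, 29.4 and 49.2 CPM in cytoplasm against 3.60, 4.12 and 2.46 CPM in nucleus. Every cytoplasmic library lay above every nuclear one, and the log2 difference was 3.40 ± 0.33 (SE) with K700E (edgeR adjusted p = 3.14e-07) and 3.47 ± 0.33 with WT (edgeR adjusted p = 2.69e-07).

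ACAT2, the cytosolic thiolase that joins acetyl-CoA units (chr6:159760328-159779055, plus strand), had 59.2, 76.8 and 78.9 CPM in K700E cytoplasm against 28.3, 42.5 and 26.3 CPM in K700E nucleus. In WT cells its cytoplasmic libraries had 84.3, 80.2 and 104 CPM and its nuclear libraries 21.1, 39.4 and 34.7 CPM. The fractions did not overlap with either construct, and the log2 difference was 1.15 ± 0.26 with K700E (edgeR adjusted p = 0.00112) and 1.50 ± 0.26 with WT (edgeR adjusted p = 0.000117). The exons of ACAT2 share 397 bases with TCP1 on the opposite strand, a gene with 37264 counts summed over the K700E cytoplasmic libraries and 13748 over the K700E nuclear ones. Whether reads were counted by strand is not given in the sources used here, so a share of TCP1 reads in ACAT2 was not tested.

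FDPS, farnesyl diphosphate synthase, averaged 65.9 ± 11.6 CPM in K700E cytoplasm against 89.8 ± 14.5 CPM in K700E nucleus, and 68.0 ± 6.93 CPM in WT cytoplasm against 107 ± 22.9 CPM in WT nucleus. Its log2 difference was -0.45 ± 0.22 with K700E, which did not pass (edgeR adjusted p = 0.0851), and -0.65 ± 0.22 with WT, which did (edgeR adjusted p = 0.0162). The WT call was lost without WT nuclear library 2 (-0.52) or 3 (-0.49) and without WT cytoplasmic library 1 or 2 (-0.59 each). Under 11 alternatives of scaling, filter, tool, samples, block or GC correction, FDPS passed as lower 6 times with K700E (-0.87 to -0.37). With WT it passed 10 times of 11 (-1.18 to -0.51). FDPS shares 18.6% of its exon bases with the antisense gene RUSC1-AS1, which had 56 counts over the K700E cytoplasmic libraries, 3645 over the K700E nuclear ones, 89 over the WT cytoplasmic ones and 3385 over the WT nuclear ones. Its part in the FDPS values was not tested.

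The other mevalonate genes did not pass with either construct. HMGCS1, which makes HMG-CoA, differed by 0.38 ± 0.34 with K700E and 0.56 ± 0.34 with WT on the log2 scale, and the isomerase IDI1 by 0.61 ± 0.34 and 0.56 ± 0.34. Without WT nuclear library 3 both passed with WT, at 1.23 for HMGCS1 and 1.11 for IDI1, and without WT nuclear library 2 they were at 0.28 and 0.24 with WT. IDI1 passed with K700E at 0.66 without WT nuclear library 2. Mevalonate kinase MVK differed by 0.40 ± 0.29 with K700E and 0.28 ± 0.29 with WT, and the decarboxylase MVD by 0.08 ± 0.33 and -0.36 ± 0.33. Scaled by library totals alone, MVD turned to -0.33 and HMGCS1 to -0.03 with K700E, and MVK to -0.03 with K700E and -0.25 with WT.

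Of the 12 enzymes from squalene to cholesterol, 5 were higher in the cytoplasm with K700E and 1 was lower. With WT, 8 were higher and 2 lower. The shares of all genes were 28.1% higher and 37.9% lower with K700E, and 27.1% and 40% with WT. Those of protein-coding genes were 36.5% and 27.4% with K700E, and 35.4% and 29.5% with WT. CYP51A1, lanosterol demethylase (chr7:92112151-92134803, minus strand), had 4.36, 7.35 and 13.95 CPM in K700E cytoplasm against 0.639, 1.04 and 0.523 CPM in K700E nucleus. With WT it had 8.01, 4.98 and 15.3 CPM in cytoplasm against 0.861, 0.263 and 0.273 CPM in nucleus. Every cytoplasmic library lay above every nuclear one, with log2 differences of 3.53 ± 0.59 with K700E (edgeR adjusted p = 7.2e-05) and 4.28 ± 0.62 with WT (edgeR adjusted p = 1.76e-05).

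The nuclear values of CYP51A1 rest on 3 to 12 counts a library, so the size of its ratio is loosely fixed. Its exons also share 79.3% of their bases with another annotated gene on the same strand, AC000120.2, which had 0 counts in every library. How reads common to both genes were assigned was not tested.

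NSDHL, a dehydrogenase that removes methyl groups from sterols (chrX:152830967-152869729, plus strand), had 36.6, 50.004 and 60.9 CPM in K700E cytoplasm against 12.5, 9.76 and 7.50 CPM in K700E nucleus. In WT cells it had 56.0, 61.9 and 66.7 CPM in cytoplasm against 9.79, 11.2 and 11.5 CPM in nucleus. No fraction overlapped, and the log2 difference was 2.31 ± 0.26 with K700E (edgeR adjusted p = 1.21e-06) and 2.51 ± 0.26 with WT (edgeR adjusted p = 5.6e-07). DHCR7, which makes the last reduction of one route to cholesterol, was higher in the cytoplasm by 2.25 ± 0.29 with K700E and 1.99 ± 0.29 with WT (edgeR adjusted p = 5.7e-06 and 1.74e-05). It averaged 69.1 ± 20.7 CPM in K700E cytoplasm against 14.5 ± 6.03 CPM in K700E nucleus, and 71.9 ± 6.88 CPM in WT cytoplasm against 18.1 ± 1.49 CPM in WT nucleus.

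The desaturase SC5D was higher in the cytoplasm by 0.97 ± 0.29 with K700E and 1.37 ± 0.29 with WT, and the isomerase EBP by 1.16 ± 0.31 and 0.80 ± 0.31. The WT call of EBP was lost without WT nuclear library 1 (0.66) or 3 (0.69), and without WT cytoplasmic library 1 (0.84) or 3 (0.69), while without WT nuclear library 2 the value was 1.27. With WT alone, LSS passed at 1.52 ± 0.62, the methyl oxidase MSMO1 at 0.90 ± 0.34 and squalene epoxidase SQLE at 0.82 ± 0.28. With K700E the same genes had 1.30 ± 0.62, 0.52 ± 0.33 and 0.61 ± 0.28, and did not pass.

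These 3 calls with WT were sensitive to single libraries. Leaving out WT nuclear library 2 took the call from LSS (1.42), MSMO1 (0.67) and SQLE (0.61). The LSS call was also lost without WT nuclear library 3 (1.27), WT cytoplasmic library 1 (1.40) or 3 (1.34), the MSMO1 call without WT cytoplasmic library 2 (0.73), and the SQLE call without WT cytoplasmic library 1 (0.75). In the other direction, LSS passed with K700E without K700E nuclear library 1 (1.81), K700E cytoplasmic library 1 (1.62) or 2 (1.61) or WT nuclear library 1 (1.35), and MSMO1 without K700E nuclear library 2 (0.92). SQLE passed with K700E without K700E nuclear library 2 (0.80), K700E cytoplasmic library 3 (0.77) or any single WT nuclear library (0.65 each).

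HSD17B7, a ketoreductase of the same demethylation steps as NSDHL, went the other way. It averaged 38.2 ± 2.39 CPM in K700E cytoplasm against 79.5 ± 9.90 CPM in K700E nucleus, and 43.5 ± 6.71 CPM in WT cytoplasm against 79.2 ± 22.0 CPM in WT nucleus. It was lower in the cytoplasm by log2 -1.06 ± 0.23 with K700E (edgeR adjusted p = 0.000685) and -0.87 ± 0.23 with WT (edgeR adjusted p = 0.00294). Without WT nuclear library 2 the WT value was -0.57 and still passed. NSDHL and HSD17B7 thus passed in opposite directions with both constructs.

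TM7SF2 and LBR are related sterol reductases that act on the same double bond. TM7SF2 had 9.93, 13.3 and 17.9 CPM in K700E cytoplasm against 19.1, 9.76 and 14.2 CPM in K700E nucleus, and 12.7, 14.1 and 14.2 CPM in WT cytoplasm against 21.5, 36.7 and 18.7 CPM in WT nucleus. Its fractions overlapped with K700E, at -0.06 ± 0.32, and were separate with WT, at -0.91 ± 0.32 (edgeR adjusted p = 0.0185). The highest value is that of WT nuclear library 2, and the WT call was lost without it (-0.51) or without WT cytoplasmic library 1 (-0.84).

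LBR had 394, 450 and 367 CPM in K700E cytoplasm against 456, 739 and 359 CPM in K700E nucleus, and 430.2, 429 and 326 CPM in WT cytoplasm against 425, 357 and 457 CPM in WT nucleus. Its fractions overlapped with both constructs, at -0.36 ± 0.25 with K700E and -0.07 ± 0.25 with WT. Per length, LBR exceeded TM7SF2 in all 4 groups, for example 76.8 ± 8.07 RPKM against 4.03 ± 1.18 RPKM in K700E cytoplasm. FDFT1 did not pass, at -0.47 ± 0.50 with K700E and -0.32 ± 0.51 with WT.

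Among the regulators, the paired genes SREBF1 and SREBF2 moved in opposite directions between fractions. SREBF2 encodes the factor that mainly drives the cholesterol genes (chr22:41833079-41907308, plus strand). It had 163, 147 and 226 CPM in K700E cytoplasm against 88.9, 78.1 and 92.7 CPM in K700E nucleus, and 137, 146 and 185 CPM in WT cytoplasm against 78.8, 106 and 88.3 CPM in WT nucleus. The cytoplasmic libraries were all above the nuclear ones, by log2 1.05 ± 0.22 with K700E (edgeR adjusted p = 0.000571) and 0.78 ± 0.22 with WT (edgeR adjusted p = 0.00474).

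SREBF1 encodes the factor that mainly drives fatty acid genes (chr17:17810399-17837002, minus strand). It had 18.2, 12.7 and 23.6 CPM in K700E cytoplasm against 38.3, 49.8 and 37.8 CPM in K700E nucleus, and 12.5, 9.80 and 17.6 CPM in WT cytoplasm against 37.0, 108 and 38.7 CPM in WT nucleus. Here all cytoplasmic libraries were below the nuclear ones, by log2 -1.20 ± 0.37 with K700E (edgeR adjusted p = 0.00952) and -2.20 ± 0.38 with WT (edgeR adjusted p = 0.000116). Without WT nuclear library 2 the WT difference was -1.45 and still passed, and without K700E cytoplasmic library 2 the K700E difference was -0.99 and did not.

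The anchors INSIG1 and INSIG2 also differed in sign. INSIG1 had 181, 356 and 196 CPM in K700E cytoplasm against 118, 107 and 103 CPM in K700E nucleus, and 132, 274 and 161 CPM in WT cytoplasm against 91.9, 35.4 and 175 CPM in WT nucleus. The fractions were separate with K700E, at 1.16 ± 0.42 (edgeR adjusted p = 0.0232), and overlapped with WT, at 0.90 ± 0.42 (edgeR adjusted p = 0.0663). The K700E call was lost without K700E cytoplasmic library 2 (0.79) and without K700E nuclear library 2 or 3 (1.16 each). With WT it passed without WT nuclear library 3 (1.61) or WT cytoplasmic library 1 (1.12), and without WT nuclear library 2 it was at 0.54.

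INSIG2 had 49.7, 51.2 and 43.3 CPM in K700E cytoplasm against 78.0, 123 and 49.6 CPM in K700E nucleus, and 36.8, 37.9 and 33.7 CPM in WT cytoplasm against 56.4, 36.6 and 42.8 CPM in WT nucleus. The ranges of the fractions overlapped with both constructs. Its difference was -0.80 ± 0.27 with K700E (edgeR adjusted p = 0.0172) and -0.32 ± 0.27 with WT (edgeR adjusted p = 0.305). The K700E call was lost without K700E nuclear library 2 (-0.39), the highest of all, or K700E cytoplasmic library 3 (-0.69).

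SCAP, the escort protein, had 66.2, 64.8 and 121 CPM in K700E cytoplasm against 108, 81.5 and 83.8 CPM in K700E nucleus, and 79.4, 64.4 and 86.9 CPM in WT cytoplasm against 99.7, 279 and 113 CPM in WT nucleus. It overlapped between fractions with K700E, at -0.11 ± 0.34, and was lower in the cytoplasm with WT, at -1.09 ± 0.34 (edgeR adjusted p = 0.0101). Without WT nuclear library 2 the WT value was -0.42 and did not pass. MBTPS1, the Golgi protease that makes the first cut in SREBP, was lower in the cytoplasm by -1.11 ± 0.22 with K700E and -1.01 ± 0.22 with WT (edgeR adjusted p = 0.000384 and 0.000794). It averaged 91.0 ± 10.7 CPM in K700E cytoplasm against 196 ± 16.0 CPM in K700E nucleus, and 98.5 ± 18.6 CPM in WT cytoplasm against 198 ± 45.9 CPM in WT nucleus.

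The lysosomal partners NPC1 and NPC2, which pass cholesterol from endocytosed lipoprotein out of the lysosome, formed another pair with opposite signs. NPC2 had 44.2, 33.2 and 39.7 CPM in K700E cytoplasm against 5.19, 10.1 and 3.23 CPM in K700E nucleus, and 30.7, 34.0 and 36.7 CPM in WT cytoplasm against 4.62, 7.28 and 4.002 CPM in WT nucleus. It was higher in every cytoplasmic library, by 2.66 ± 0.35 with K700E and 2.67 ± 0.35 with WT on the log2 scale (edgeR adjusted p = 7.58e-06 and 7.66e-06).

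NPC1 had 30.0, 30.6 and 37.0 CPM in K700E cytoplasm against 48.3, 42.0 and 53.0 CPM in K700E nucleus, and 29.9, 28.5 and 24.8 CPM in WT cytoplasm against 42.5, 44.3 and 52.3 CPM in WT nucleus. It was lower in every cytoplasmic library, by -0.55 ± 0.21 with K700E and -0.74 ± 0.21 with WT (edgeR adjusted p = 0.0254 and 0.00464). The K700E call was lost without K700E nuclear library 1 (-0.49) or 3 (-0.43), or without K700E cytoplasmic library 1 (-0.49) or 2 (-0.50). STARD4, a cytosolic sterol carrier, did not pass, at 0.56 ± 0.42 with K700E and 0.87 ± 0.43 with WT. Under 11 alternatives of scaling, filter, tool, samples, block or GC correction, STARD4 passed 5 times with WT (0.38 to 1.16) and 0 times with K700E. With WT it passed without WT nuclear library 1 (1.64) or K700E cytoplasmic library 3 (0.92), and without WT nuclear library 2, which held its lowest value, it was at 0.50.

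**Figure D2:**
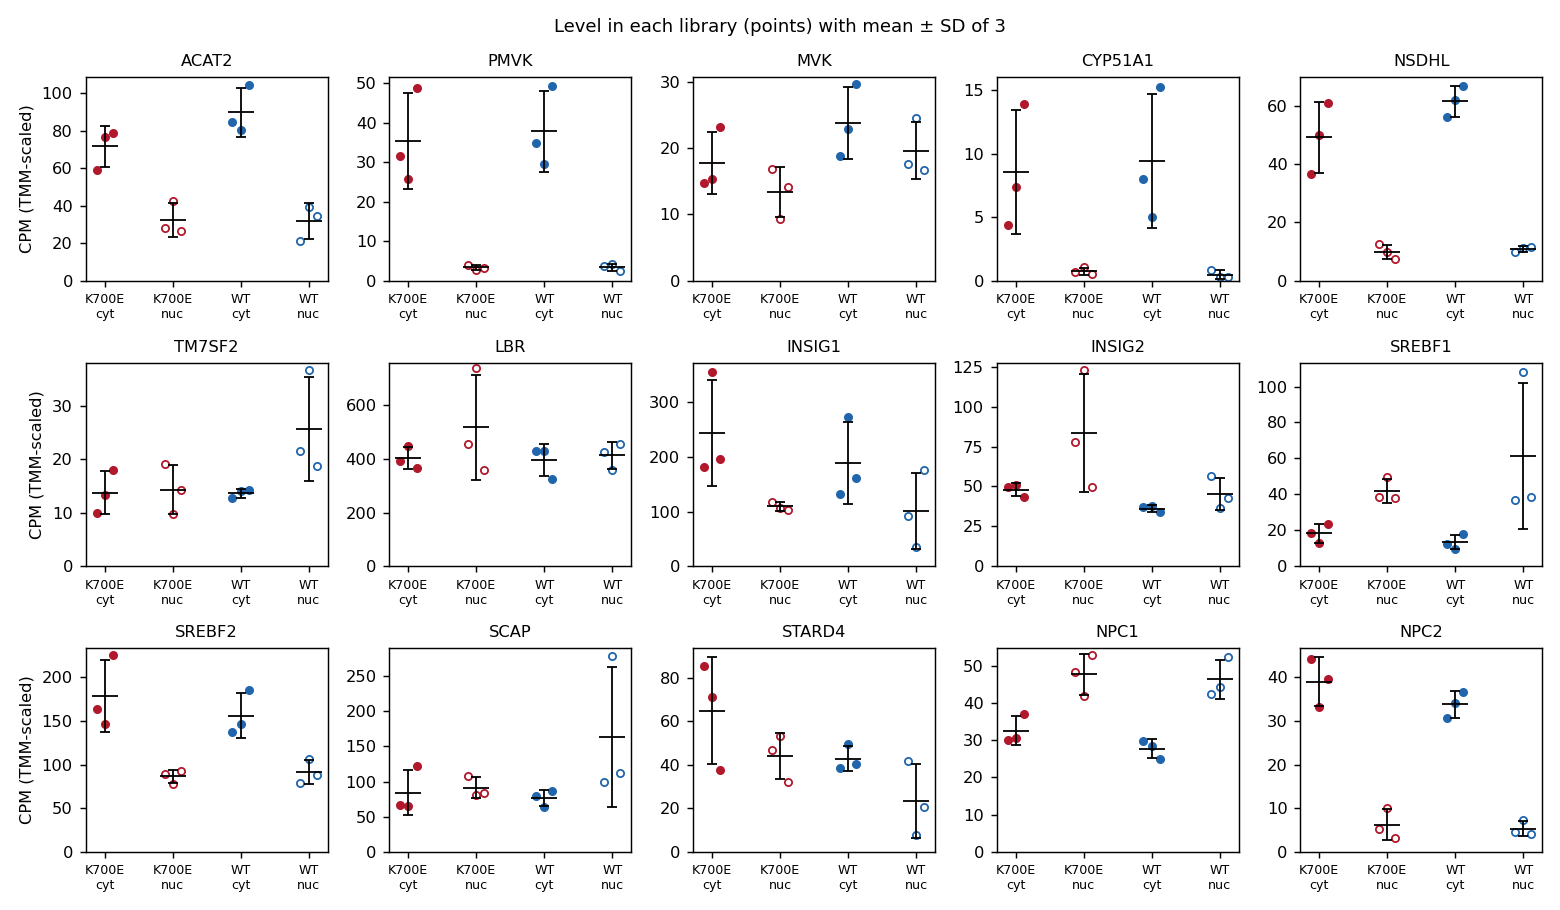
CPM after TMM scaling (vertical axis, from 0) of 15 genes in each library, as points, with mean ± SD of 3 for K700E cytoplasm, K700E nucleus, WT cytoplasm and WT nucleus from left to right (filled symbols cytoplasm, open symbols nucleus). PMVK, NSDHL and NPC2 separate the fractions with both constructs, and WT nuclear library 2 is the high point of TM7SF2, SREBF1 and SCAP and the low point of INSIG1 and STARD4.

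The 2 lists were also set against each other as summed RPKM. The ratio of the 19 enzymes to the 6 regulators was 3.20, 2.57 and 2.79 in K700E cytoplasm against 2.52, 3.01 and 2.42 in K700E nucleus, and 4.0, 2.97 and 3.56 in WT cytoplasm against 2.74, 1.96 and 2.52 in WT nucleus. The fractions overlapped with K700E and did not overlap with WT. LBR alone made up 19.8% to 22.5% of the enzyme sum in K700E cytoplasm, 31.3% to 42.4% in K700E nucleus, 17.3% to 23.1% in WT cytoplasm and 30.6% to 34.8% in WT nucleus. With LBR left out, a step chosen after its share was seen, the mean ratio was 2.24 ± 0.24 in K700E cytoplasm against 1.69 ± 0.04 in K700E nucleus, and 2.78 ± 0.40 in WT cytoplasm against 1.63 ± 0.24 in WT nucleus. In that form the fractions did not overlap with either construct. On the regulator side INSIG1 averaged 66.9 of a summed 127 RPKM in K700E cytoplasm and 30.0 of 101 in K700E nucleus. With WT it averaged 51.7 of 105 RPKM in cytoplasm and 27.6 of 104 in nucleus. The ratio without INSIG1 was not computed.

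**Figure D3:**
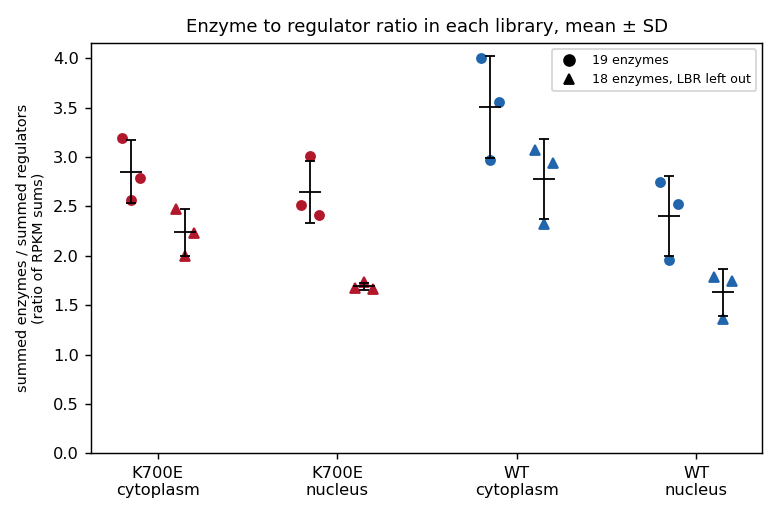
Ratio of the summed RPKM of the enzymes to that of the 6 regulators (vertical axis, from 0) in each library, with mean ± SD of 3, for all 19 enzymes (circles) and without LBR (triangles). Without LBR the cytoplasmic libraries lie above the nuclear ones with both constructs.

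K700E was compared with WT within each fraction, which asks whether the construct changed the level of these transcripts. None of the 28 genes passed in the nucleus or in the cytoplasm. Over all genes tested with edgeR, 0% passed in the nucleus, and 0.0049% were higher and 0% lower in the cytoplasm (1 gene, with no symbol). DESeq2 called 0 genes higher and 1 lower in the nucleus and 11 higher and 2 lower in the cytoplasm, with 0 of the 28 among them. With no filter beyond 1 count, edgeR called 10 genes higher and 26 lower in the nucleus and 50 higher and 35 lower in the cytoplasm, again with 0 of the 28. At an unadjusted p under 0.05, 5 of the 28 fell below the threshold in the nucleus, against 6.81% of all genes, and 0 of the 28 in the cytoplasm, against 4.56% of all genes.

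The nuclear genes with the smallest p were INSIG2, TM7SF2 and SCAP, whose library values are given above. INSIG2 was at 0.88 ± 0.28 in K700E minus WT nucleus, TM7SF2 at -0.84 ± 0.32 and SCAP at -0.84 ± 0.34, each with an edgeR adjusted p of 0.659. In each of them the K700E and WT libraries overlapped. SC5D and STARD4, at 0.69 ± 0.29 and 0.91 ± 0.43, were the others with an unadjusted p under 0.05.

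These nuclear differences leaned on single libraries. Without WT nuclear library 2, SCAP was at -0.22, TM7SF2 at -0.48 and INSIG2 at 0.75, and 1 of the 28 genes kept an unadjusted p under 0.05. Without K700E nuclear library 2, INSIG2 was at 0.50 and 0 genes did. Leaving out any other library gave 4 to 7 such genes, with 7 without K700E nuclear library 1 or WT nuclear library 1. In none of the 28 did the nuclear libraries of K700E and WT separate, against 8.78% of all genes.

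In the cytoplasm the 3 genes with the smallest p were INSIG2, MVK and STARD4. INSIG2 was at 0.41 ± 0.27, with its 3 K700E libraries all above the 3 WT libraries. MVK had 14.8, 15.3 and 23.2 CPM in K700E cytoplasm against 18.9, 22.9 and 29.7 CPM in WT cytoplasm, which overlapped, at -0.42 ± 0.29 (-0.67 without K700E cytoplasmic library 3). STARD4 had 85.4, 71.3 and 37.6 CPM in K700E cytoplasm against 38.4, 49.3 and 40.5 CPM in WT cytoplasm, which also overlapped, at 0.60 ± 0.42. The edgeR adjusted p rounds to 1 for all 3.

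Libraries of K700E and WT cytoplasm separated for 3 of the 28 genes (INSIG2, NPC1 and ACAT2), against 13.6% of all genes. The 95% intervals of 21 of the 28 cytoplasmic differences lay within 1 log2 unit of 0, and those of 15 of 28 nuclear ones. For the remaining genes a difference beyond 1 log2 unit lay within the interval. Role medians of K700E minus WT were 0.00 for enzymes and -0.04 for regulators in the nucleus, and -0.04 and 0.28 in the cytoplasm. Leaving out single libraries moved the nuclear medians between -0.09 (without WT nuclear library 2) and 0.11 (without K700E nuclear library 3) for enzymes and between -0.16 (without WT nuclear library 1) and 0.10 (without WT nuclear library 2) for regulators. In the cytoplasm the enzyme median ran from -0.24 without K700E cytoplasmic library 3 to 0.05 without K700E cytoplasmic library 1, and the regulator median was 0.09 without K700E cytoplasmic library 3, 0.16 without WT cytoplasmic library 1 and at most 0.33.

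**Figure D4:**
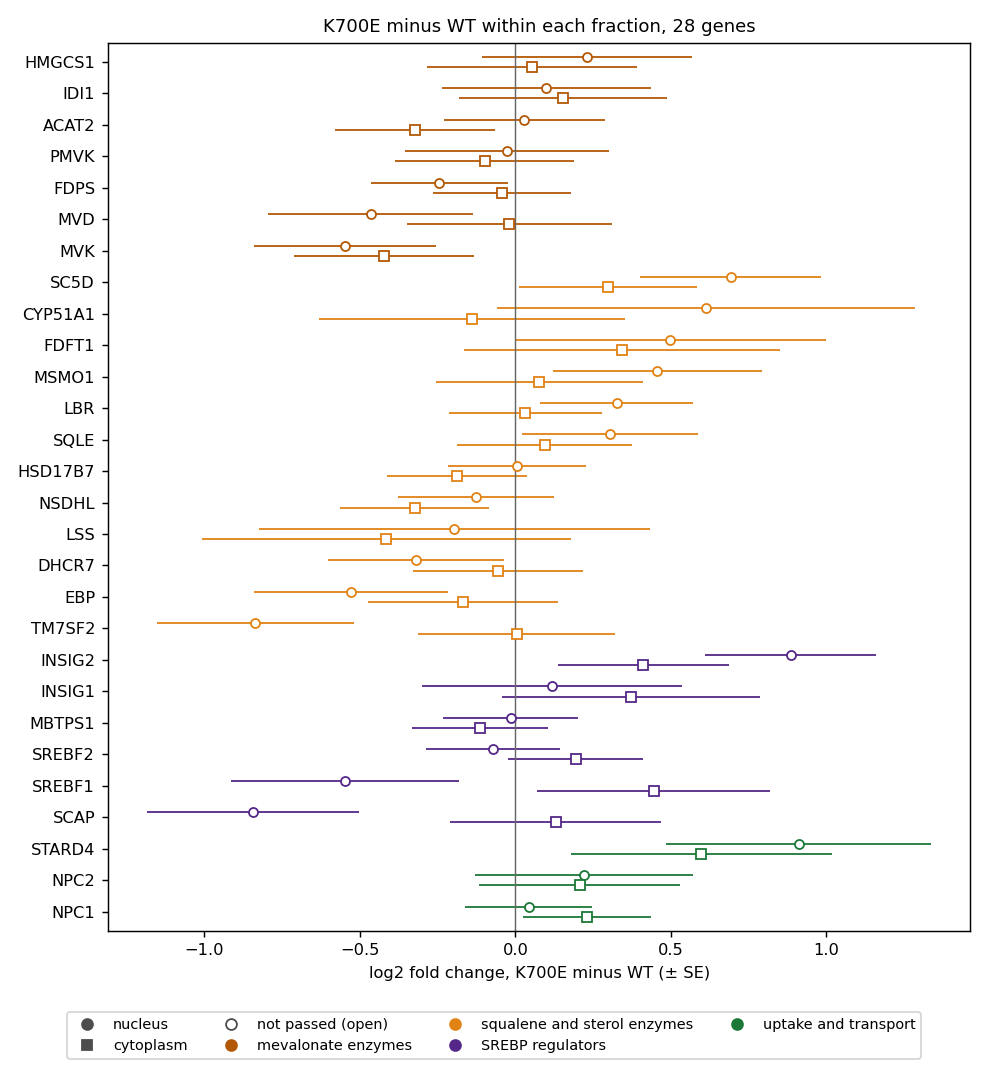
Log2 fold change of K700E minus WT (horizontal axis, ± SE) for the 28 genes by role, with the nucleus as circles above the cytoplasm as squares. All symbols are open because no gene passed. INSIG2 and STARD4 lie farthest to the right, and SCAP and TM7SF2 farthest to the left, in the nucleus.

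The interaction test asks whether the cytoplasm to nucleus ratio changed with K700E, the comparison closest to the export question. No gene of the 28 passed, and 0% of all genes did with edgeR. With no filter beyond 1 count, edgeR called 24 genes higher and 7 lower, with 0 of the 28. At an unadjusted p under 0.05 edgeR had 0 of the 28, against 3.3% of all genes, and DESeq2 called 2 genes higher and 1 lower overall and 0 of the 28. The 3 smallest p-values belonged to SCAP at 0.97 ± 0.48, SREBF1 at 0.99 ± 0.52 and TM7SF2 at 0.84 ± 0.45 (K700E minus WT difference of log2 ratios, edgeR adjusted p = 0.98 each). Without WT nuclear library 2 they were 0.35, 0.29 and 0.49.

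Intervals for the interaction were wide. Their median half-width was 0.92 log2 units, and 9 of 28 lay within 1 log2 unit of 0. The median was -0.18 for enzymes and 0.26 for regulators. Leaving out single libraries moved the enzyme median between -0.25 (without WT nuclear library 3) and 0.00 (without K700E nuclear library 1), and the regulator median between 0.08 (without WT nuclear library 3) and 0.42 (without WT cytoplasmic library 2).

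In most libraries the deviations of the 28 genes from their group means were correlated with GC content. The Spearman correlation over the 28 genes of a gene's deviation from its group mean with the GC content of its transcript was 0.79 in K700E cytoplasmic library 3, -0.76 in K700E cytoplasmic library 2, -0.74 in K700E nuclear library 2 and 0.71 in WT nuclear library 2. It lay between -0.65 and 0.61 in the other 8 libraries, and was weakest in WT cytoplasmic library 1 (-0.13). These are descriptions, since the genes share library, depth and base composition. The deviations of the 3 libraries of a group from their mean are also tied to each other.

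GC content ranged from 34.2% in STARD4 to 64.2% in TM7SF2. WT nuclear library 2 was the lowest of its group for HMGCS1 (39.6 CPM), IDI1 (38.0), SQLE (35.3), INSIG1 (35.4) and STARD4 (7.72). It was the highest for the GC-rich SREBF1 (108), SCAP (279) and TM7SF2 (36.7). Other genes went against this order. The same library was the highest for HSD17B7 (104 CPM, 41.7% GC) and NPC2 (7.28 CPM, 44.3% GC), and the lowest for DHCR7 (16.5 CPM, 58.3% GC). After a GC correction, added after the data were seen, the nuclear K700E minus WT values were 0.58 for INSIG2, -0.44 for TM7SF2 and -0.40 for SCAP, and 2 of the 28 genes had an unadjusted p under 0.05. The part of GC content in the uncorrected values was not tested further.

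**Figure D5:**
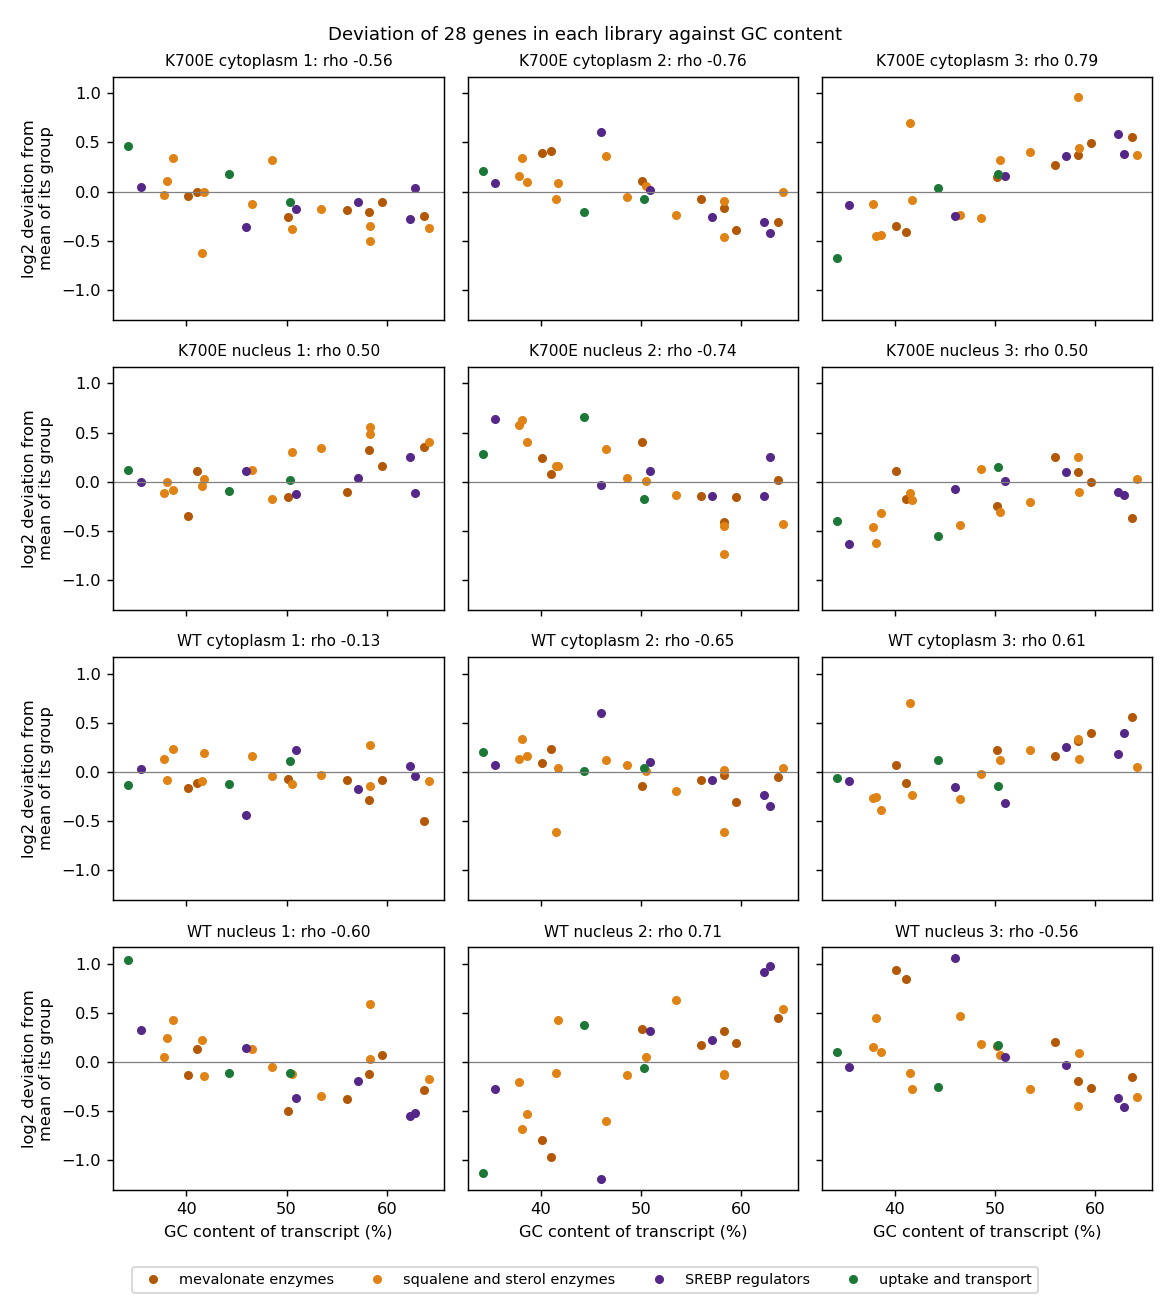
Deviation of each of the 28 genes from the mean of its group (vertical axis, log2 of CPM plus 2) against the GC content of its transcript (horizontal axis, percent) in each of the 12 libraries, coloured by role, with Spearman's rho in each title. The slope runs upwards in K700E cytoplasmic library 3 (rho 0.79) and WT nuclear library 2 (0.71) and downwards in K700E cytoplasmic library 2 (-0.76) and K700E nuclear library 2 (-0.74).

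Structure of the genes was compared with the fraction values. Median gene length was 22600 bases for the 28 genes, 22116 for the enzymes and 44875 for the regulators, against 34609 for the 13895 protein-coding genes tested. Exonic length had a median of 4305 bases in enzymes and 6995 in regulators, against 5104 in the protein-coding genes. The Spearman correlation of the fraction log2 difference with exonic length over the 28 genes was -0.55 with K700E and -0.53 with WT. Over the protein-coding genes it was -0.25 and -0.20. Exonic length gave the strongest correlation of the features compared. For gene length the values over the 28 genes were -0.24 with K700E and -0.18 with WT. For exon number they were -0.32 with each construct, and for GC content 0.00 and -0.24. None of these relations was tested. PMVK, with the shortest exonic length (1280 bases), had one of the 2 highest ratios, and MBTPS1 and NPC1, with the longest (10238 and 10102 bases), were both lower in the cytoplasm. Other genes went against this order. SREBF2 (7557 bases) was higher in the cytoplasm with both constructs and LSS (7238 bases) with WT. TM7SF2 (3408 bases) and FDPS (3718 bases) were lower with WT.

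Promoters were read from RefSeq (GRCh38.p14), as windows from 250 bases before to 50 bases after each start, for the 25 genes matched in that table. The sterol regulatory element through which SREBP acts (searched as TCACNCCAC on both strands) was found in 1 of 25, SREBF2, and in 1.53% of 15301 genes. The CCAAT box, bound by NF-Y, a usual partner of SREBP (searched as CCAAT on both strands), was in 17 of 25 (13 of 16 enzymes and 2 of 6 regulators), against 42.5% of genes. The E-box CACGTG was in 4 of 25, against 10.9% of genes. A match is a description of letters, and no match says nothing of the factor.

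The SREBF2 stretch is shown because it holds the one sterol element, and the enzyme stretches because each holds 3 or more CCAAT boxes before the annotated gene. Capitals mark the sterol element and CCAAT boxes, which read ATTGG on the opposite strand, and in NSDHL boxes of both strands overlap. The stretches are chr22:41832927-41833025 (plus), chr4:165327474-165327607 (plus), chr16:88663162-88663260 (minus) and chrX:152830825-152830966 (plus).
SREBF2: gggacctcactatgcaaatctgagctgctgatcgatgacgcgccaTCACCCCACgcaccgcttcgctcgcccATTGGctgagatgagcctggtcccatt
MSMO1: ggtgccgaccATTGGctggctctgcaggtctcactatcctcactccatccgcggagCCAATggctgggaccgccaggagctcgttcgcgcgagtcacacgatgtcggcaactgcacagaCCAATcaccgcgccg
MVD: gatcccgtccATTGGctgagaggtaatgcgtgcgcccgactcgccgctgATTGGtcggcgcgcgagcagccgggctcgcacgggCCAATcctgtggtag
NSDHL: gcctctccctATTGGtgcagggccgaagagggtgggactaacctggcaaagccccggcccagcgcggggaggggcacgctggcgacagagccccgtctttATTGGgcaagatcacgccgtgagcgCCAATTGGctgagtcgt

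The genes shown differ in their fraction values: NSDHL and SREBF2 were higher in the cytoplasm with both constructs, MSMO1 with WT, and MVD with neither.

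Around these genes, 39 others of lipid synthesis, the isoprenoid branch, sterol-dependent protein turnover, LXR and efflux, and esterification or movement were counted. In the cytoplasm 15 of them were higher and 10 lower with K700E, and with WT 16 were higher and 9 lower. The shares of all protein-coding genes were 36.5% higher and 27.4% lower with K700E, and 35.4% and 29.5% with WT, and the counts of the 39 are near them. Of 11 lipid synthesis genes 6 were higher and 0 lower with K700E, and 7 were higher and 1 lower with WT. Of 10 isoprenoid genes 6 were higher and 3 lower with K700E, and 6 and 1 with WT. Of 6 turnover genes 2 were higher and 3 lower with each construct, of 5 LXR and efflux genes 0 were higher and 2 lower with each, and of 7 esterification and movement genes 1 was higher and 2 lower with each.

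The largest rises were those of TMEM97, a sterol-responsive partner of NPC1, and SCD, the stearoyl-CoA desaturase. TMEM97 averaged 145 ± 21.9 CPM in K700E cytoplasm against 11.4 ± 2.74 CPM in K700E nucleus (log2 3.67 ± 0.27), and 145 ± 17.5 CPM in WT cytoplasm against 12.8 ± 3.78 CPM in WT nucleus (3.50 ± 0.27). SCD averaged 992 ± 184 CPM in K700E cytoplasm against 155 ± 29.2 CPM in K700E nucleus (2.67 ± 0.31), and 861 ± 103 CPM in WT cytoplasm against 141 ± 63.6 CPM in WT nucleus (2.61 ± 0.31).

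The largest falls were those of the sterol exporter ABCA1 and of FBXW7, the ubiquitin ligase subunit that directs active SREBP to degradation. ABCA1 averaged 6.45 ± 2.68 CPM in K700E cytoplasm against 73.1 ± 38.2 CPM in K700E nucleus (log2 -3.51 ± 0.44), and 5.87 ± 2.59 CPM in WT cytoplasm against 49.8 ± 14.7 CPM in WT nucleus (-3.09 ± 0.44). FBXW7 averaged 57.5 ± 7.94 CPM in K700E cytoplasm against 310.7 ± 58.6 CPM in K700E nucleus (-2.43 ± 0.25), and 74.8 ± 11.6 CPM in WT cytoplasm against 281 ± 87.4 CPM in WT nucleus (-1.91 ± 0.25). None of the 39 passed in K700E minus WT in either fraction or in the interaction, with 2 in the nucleus, 3 in the cytoplasm and 0 in the interaction at an unadjusted p under 0.05, against 6.81%, 4.56% and 3.3% of all genes.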

How the data were processed

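HEK293T cytoplasmic and nuclear RNA was sequenced from 12 libraries made with the NEBNext Ultra kit, per the labels' protocols. The authors deposited read counts per gene for each library. HISAT2 and DESeq are named in the submitters' processing notes without versions; no source used here names the counting program, strand setting, genome build or annotation. Gene symbols, coordinates, exon lengths and GC content came from GENCODE on GRCh38 by gene identifier. Of the 67049 identifiers, 58396 were found in the GENCODE release used (29), so the annotation behind the counts was not that one. All deposited counts were used as they stand.

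Tests used edgeR 4.0.16 (R 4.3.3; glmQLFit and glmQLFTest) on all 12 libraries with 1 term per group, TMM scaling, filterByExpr with a minimum count of 10, and Benjamini-Hochberg adjustment over the 20394 genes kept, called at adjusted p under 0.05. Standard errors are the log2 fold change divided by the root of F. The filter, steps and thresholds were tested on simulated data, with 1 spread for all genes. Of 100 simulated K700E minus WT changes of 2-fold, 7 were recovered in the nucleus and 10 in the cytoplasm. Of 100 changes of 4-fold, 74 and 78 were recovered. False calls among the unchanged genes numbered 7 in the nucleus and 5 in the cytoplasm. Most 2-fold construct effects would thus have been missed in such data. Alternatives were DESeq2 1.42.0, limma 3.58.1 with voom, other scalings, filters and thresholds, replicate blocks, a GC correction and leaving out each library.

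Whether replicate libraries come from separate cultures is not stated in the labels; p-values then measure only the spread among libraries, which may be technical. The 95% intervals are for the log2 difference between groups, and their width rests on that same spread. The 28 genes and all lists were chosen with earlier results of these data known. Library values are given for the 2 largest called changes per role and fraction comparison, 4 related gene pairs and the 3 smallest p-values of each construct comparison; other genes have means or differences. Results of some other genes of the pathway are not reported here. Proteins were not compared.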

Additional observations from a re-analysis of the deposited data

How the results depend on the processing

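Fraction counts among the 28 genes, 10 higher and 5 lower with K700E and 12 higher and 7 lower with WT, moved by more than 1.5 times under a few alternatives. Tested against a minimum fold of 2, K700E had 5 higher and 0 lower and WT 6 higher and 1 lower. Of all 20394 genes, 3193 were then higher and 5362 lower with K700E, against 5723 and 7725 in the main test. With WT the same counts were 3065 and 5779, against 5517 and 8163. At adjusted p under 0.01 the lower genes numbered 3 with K700E and 4 with WT, and among all genes 6159 and 6564. With WT, 7 genes were higher under library totals alone, 7 under upper quartile factors, and 6 among genes with 1 CPM in all libraries. Among all genes the matching WT counts were 3775, 4229 and 3867, the last out of 12309 genes tested. Leaving out each library gave 9 to 12 higher and 3 to 5 lower with K700E (3 without K700E cytoplasmic library 2), and 9 to 13 higher and 4 to 7 lower with WT (4 without WT nuclear library 2). The other alternatives stayed within 1.5 times. Calls for 9 genes with K700E and 10 with WT held under every alternative that tested them except a minimum fold or a stricter p; CYP51A1, one of both, was not tested under the 1 CPM filter.

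Genes that changed sign had not passed: with K700E, MVD (library totals -0.33, upper quartile -0.29, DESeq2 factors -0.036, DESeq2 -0.037, 1 CPM filter -0.24, GC correction -0.15, leaving out libraries -0.24 to 0.34), HMGCS1 and MVK (library totals -0.027 and -0.029), TM7SF2 (no filter 0.0027, leaving out libraries -0.26 to 0.25), SCAP (leaving out libraries -0.44 to 0.078) and LBR (-0.52 to 0.0066), and with WT, MVK (library totals -0.25, upper quartile -0.10, 1 CPM filter -0.048) and LBR (no filter 0.060, leaving out libraries -0.12 to 0.074). The cause was not tested. For K700E minus WT and the interaction, 0 of the 28 genes passed under every alternative run.

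The labels do not say what replicate numbers share, and the numbers were not taken to pair the libraries, since the check was mixed: correlations of same-numbered libraries' deviations ran from -0.36 to 0.22 between fractions with K700E, -0.36 to 0.20 with WT, -0.17 to 0.37 between constructs in the nucleus and 0.07 to 0.63 in the cytoplasm. A replicate block by number gave 11 higher and 5 lower with K700E, 13 higher and 7 lower with WT, and 0 elsewhere. A block by construct and number gave 11 and 4 with K700E and 15 and 7 with WT. With exon lengths from the longest transcript in place of all exons, LBR kept the highest RPKM in all 4 groups. INSIG1 kept rank 2 in both cytoplasmic groups but moved from rank 2 to 4 in K700E nucleus, where MBTPS1 took rank 2. In K700E cytoplasm SC5D took rank 3 and MSMO1 moved to rank 4, while in WT cytoplasm MSMO1 kept rank 3. Depth limits FDFT1, LSS and nuclear CYP51A1 most.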

Other observations

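IDI2-AS1 and STARD4-AS1, antisense genes that overlap IDI1 and STARD4, had more counts in the nuclear libraries than in the cytoplasmic ones. The overlap with IDI2-AS1 takes up 14.8% of the exon bases of IDI1. IDI2-AS1 had 15 counts over the K700E cytoplasmic libraries against 403 over the K700E nuclear ones. With WT it had 20 over the cytoplasmic libraries against 400 over the nuclear ones. IDI1 itself had 933 to 1248 counts in each K700E nuclear library. STARD4-AS1 had 33 counts over K700E cytoplasmic libraries against 147 over K700E nuclear ones, and 45 against 106 with WT.

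The 13 mitochondrially encoded mRNAs summed to 6108, 7162 and 7134 CPM in K700E cytoplasm and 18783, 13763 and 4473 CPM in WT cytoplasm. The WT cytoplasmic libraries therefore spanned a range that held the K700E values within it.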
